A study of Homo sapiens with 6 samples.

Results

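The 10 genes described here are listed as regulators of ERBB receptor turnover, and they were followed in LN229 cells, an established human glioblastoma line. They were taken by symbol from the deposited table, where all 10 of 10 were found among 24480 distinct gene symbols, and the rule itself names genes by function and not by a value, although earlier results of these data were known when it was made. The ubiquitin ligases are RNF41, STUB1, CBL, CBLB and NEDD4, and the deubiquitinase is USP8. The inhibitors are LRIG1, at the membrane, and ERRFI1, in the cytosol. LRIG2 and LRIG3 are listed as relatives of LRIG1. One group of 3 libraries came from LN229 cells labelled vector and the other 3 from LN229 cells with LACTB overexpression, LACTB being a mitochondrial serine beta-lactamase-like protein. No drug, time point or further allele is labelled. The sources used here do not give the construct's promoter or whether cells were pooled or cloned. The study concerns LACTB, lipid synthesis and loss of ERBB3 protein, and the comparison here asks whether transcripts of the 10 listed genes differed with LACTB. Only RNA was measured, so these values say nothing of receptor protein.

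As background, ERBB receptors are receptor tyrosine kinases at the cell surface that are removed by ubiquitination, endocytosis and sorting to the lysosome. CBL family ligases act mainly on ligand-bound EGFR, RNF41 (also called NRDP1) acts on ERBB3 without need of ligand, and STUB1 (also called CHIP) ubiquitinates clients of the HSP70 and HSP90 chaperones. USP8 removes ubiquitin from receptors on endosomes and also from RNF41. LRIG1 and ERRFI1 are feedback inhibitors that bind the receptors directly.

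Values are normalized read counts, with column totals from 34907394 to 41384595, the 3 LACTB totals being the lowest. The vector libraries share 1 number of genes above 0 (22530), while the LACTB libraries range from 20494 to 23052. LACTB itself rose from 455 ± 61.4 to 4183 ± 96.3 (SD, n = 3 each; limma adjusted p = 2.9e-14), which checks the labels. All 10 markers of glioma or mesenchymal cells passed the low-value filter (summed level 109028 to 115098 in vector and 112835 to 113972 in LACTB libraries). Within that steady sum 5 were higher and 3 lower, beside 27.4% higher and 24.6% lower of all tested genes. S100B fell from 33778 to 14499, OLIG2 and FABP7 fell, and SOX2 (1131 to 2674), SOX9 (10.8 to 65.6), VIM, CD44 and GFAP rose. GFAP stood at only 74.5 ± 1.89 in vector and 122 ± 3.82 in LACTB cells, where the filter of 1 CPM is 37.7. SOX9, at 10.8 in vector cells, lay under that filter there and was tested only because of its LACTB libraries. No immune marker of 6 passed the filter (summed level 42.9 to 79.7 in vector and 41.8 to 62.3 in LACTB libraries), and AIF1 was at 0 in the vector libraries. Of the other marker lists, 4 of 6 neuronal genes passed (summed 1662 to 1716 and 1561 to 1758) and 2 of 5 endothelial genes (244 to 301 and 173 to 201). Of the 4 neuronal genes tested, SYT1 rose 3.09-fold. The means of SNAP25 (0.772-fold), SLC17A7 (0.646-fold) and GAD1 (0.82-fold) were lower in LACTB cells, and these genes were not called. The endothelial gene KDR, just under the filter and not tested, had means of 69.9 and 4.86. Among 5 epithelial genes 2 passed, KRT8 and KRT18, and both fell (summed 5866 to 7161 and 2774 to 3256). No marker in the table was at 0 in all 6 libraries, and the part of these markers in the results was not tested. As in any bulk RNA, fewer cells of a kind and less RNA per cell cannot be told apart.

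Promoter sequences are shown for 3 of the genes: RNF41, which fell with LACTB, USP8, whose product acts on RNF41 and which rose, and NEDD4, which had the largest rise. Each is the 250 bases before the first listed RefSeq start (GRCh38.p14), written 5′ to 3′ on the gene's strand. They lie at chr12:56221923-56222172 (RNF41, minus strand), chr15:50424155-50424404 (USP8, plus strand) and chr15:55917137-55917386 (NEDD4, minus strand, 1 of 3 listed starts and inside the annotated span of the gene). Capitals mark matches, on either strand, to 1 of 7 short motifs. The GC box was searched as GGGCGG and the TATA element as TATAAA. The CCAAT box was searched by its name's letters and the E-box as CACGTG. The cyclic AMP response element (CRE) was searched as TGACGTCA, the site of AP-1 factors as TGANTCA, and that of ETS factors as CCGGAAG. None of these motifs contains another.
RNF41: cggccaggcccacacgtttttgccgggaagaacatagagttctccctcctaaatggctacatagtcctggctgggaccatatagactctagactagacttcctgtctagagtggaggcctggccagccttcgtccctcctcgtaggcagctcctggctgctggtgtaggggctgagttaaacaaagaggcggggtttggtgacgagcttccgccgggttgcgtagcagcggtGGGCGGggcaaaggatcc
USP8: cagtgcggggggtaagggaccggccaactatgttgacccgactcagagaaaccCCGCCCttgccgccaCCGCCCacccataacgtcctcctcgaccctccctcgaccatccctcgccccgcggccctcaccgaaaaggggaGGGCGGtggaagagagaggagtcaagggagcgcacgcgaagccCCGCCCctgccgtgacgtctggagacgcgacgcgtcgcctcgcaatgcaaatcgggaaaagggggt
NEDD4: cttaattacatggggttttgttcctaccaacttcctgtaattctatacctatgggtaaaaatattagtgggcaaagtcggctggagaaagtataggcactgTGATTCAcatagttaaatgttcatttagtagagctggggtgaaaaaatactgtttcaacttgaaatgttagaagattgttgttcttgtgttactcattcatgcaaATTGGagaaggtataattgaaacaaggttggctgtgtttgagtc

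These windows differ in base composition. The RNF41 window held 12 CpG dinucleotides and 58.8% GC, near the medians of 11 and 58.0% over the first listed starts of 27305 genes. USP8 had 27 CpG, 67.2% GC and 4 GC box matches. In NEDD4 there was 1 CpG and 36.0% GC, no GC box, and 1 AP-1 and 1 CCAAT match. RefSeq entries were matched for 8 of the 10 genes, all but CBL and STUB1. Of these 8, 7 held a GC box, against 42.3% of all windows, and 5 held a CCAAT box, against 33%. The E-box was found only in the LRIG3 window (6.49% of all) and the AP-1 letters only in that of NEDD4 (6.6%), while none of the 8 held the TATA (11.1%), CRE (1.77%) or ETS (8.82%) letters. A match describes letters only.

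All 10 genes passed the filter of 1 CPM and all 10 passed the test, with 8 higher and 2 lower in LACTB cells (limma, adjusted p below 0.05 over 12939 genes). Across all tested genes the share called was 51.9%, with 27.4% higher and 24.6% lower, so a call by itself is common in these data. The 2 groups of libraries did not overlap for any of the 10, which was also the case for 59.7% of tested genes. The median log2 difference of the 10 was 0.61, beside 0.05 over all tested genes. The differences were moderate in size: only NEDD4 passed 2-fold on the log2 scale. Nothing in the labels ties the libraries to separate cultures, so the p-values cover only the spread among these 6 libraries, possibly a technical one.

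**Figure D1:**
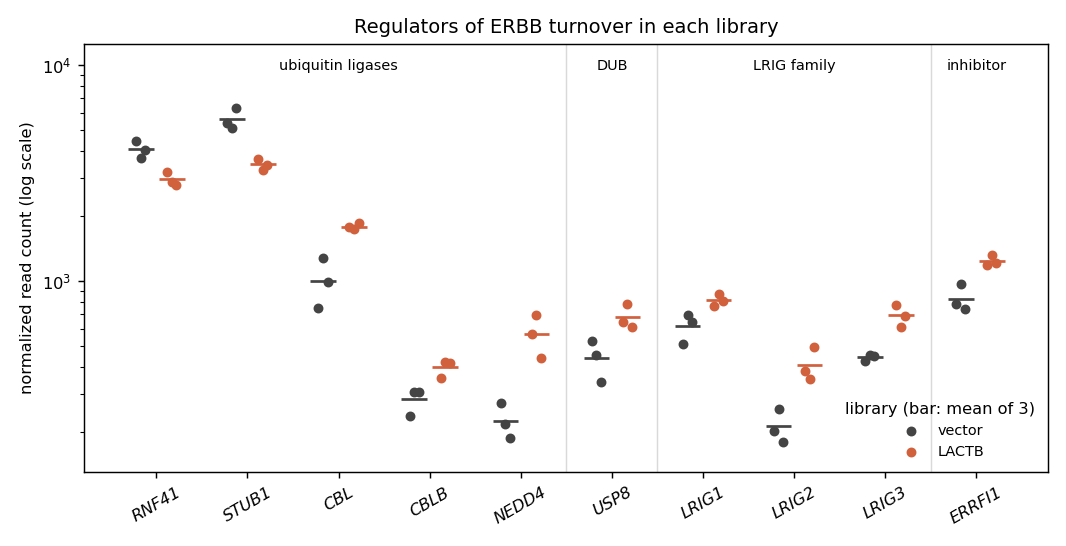
Normalized read counts (log axis) of the 10 regulators in each vector (grey) and LACTB (orange) library, with a bar at the mean of 3; DUB marks the deubiquitinase. RNF41 and STUB1 are lower in every LACTB library and the other 8 genes are higher in every LACTB library.

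RNF41 and the chaperone-linked ligase STUB1 were the pair that fell. RNF41 (chromosome 12, 56202175 to 56221933, minus strand, 7 exons in its longest transcript, GENCODE 29 on GRCh38, as for all gene positions below) stood at 4438, 3722 and 4036 in vector libraries 1 to 3 and at 3193, 2881 and 2769 in LACTB libraries 1 to 3. Every LACTB library was below the lowest vector library. The means were 4065 ± 359 and 2948 ± 219.8 (SD, n = 3), a log2 difference of -0.46 (SE 0.11, adjusted p = 0.0018). STUB1, a cochaperone with a U-box ligase domain (chromosome 16, 680224 to 682870, plus strand, 5 exons), stood at 5411, 5102 and 6337 in vector and 3681, 3273 and 3449 in LACTB libraries. It fell by 0.69 on the log2 scale (SE 0.12, 95% interval -0.93 to -0.45, adjusted p = 3.8e-05). In vector cells these were also the regulators with the highest level per length, and the loss was a matter of degree: LACTB cells kept 0.725 of the vector mean for RNF41 and 0.617 for STUB1.

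The other ligases were higher. NEDD4, a HECT-type ligase of membrane proteins (chromosome 15, 55826922 to 55993746, minus strand, 25 exons), stood at 272, 218 and 187 in vector and 570.4, 694 and 439.9 in LACTB libraries. That was 2.52-fold by the means, with a log2 difference of 1.32 (SE 0.19, adjusted p = 7.1e-06). Within the LACTB group its values spread widely, yet the lowest exceeded the highest vector value. CBL, the RING ligase recruited to phosphorylated EGFR (chromosome 11, 119206276 to 119313926, plus strand, 16 exons), stood at 745, 1272 and 985 in vector and 1768, 1733 and 1846 in LACTB libraries. Its vector libraries varied more (SD 263.5) than its LACTB libraries (SD 58.0), and it rose by 0.87 (SE 0.15, adjusted p = 6.9e-05). CBLB, its close relative (chromosome 3, 105655461 to 105869552, minus strand, 19 exons), stood at 238, 304 and 305 in vector and 357, 419 and 416 in LACTB libraries, with a log2 difference of 0.50 (SE 0.17, adjusted p = 0.020). Its call did not hold without LACTB library 2 (adjusted p = 0.088) or 3 (0.084), with median centring (0.075) and with quantile normalization (0.16). With the trend on transcript length and GC removed, CBLB stood at -0.026 (adjusted p = 0.90), or 0.18 (adjusted p = 0.34) on the transcript of median length.

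USP8, the deubiquitinase (chromosome 15, 50424380 to 50514419, plus strand, 20 exons), stood at 524, 453 and 341 in vector and 648, 778 and 613 in LACTB libraries. It rose from 439 ± 92.6 to 679.8 ± 86.5 (SD, n = 3), a log2 difference of 0.64 (SE 0.17, adjusted p = 0.0030). The lowest LACTB library was above the highest vector library. The call was lost, and the sign changed, with the trend on transcript length and GC removed (-0.21, adjusted p = 0.24), and it was lost on the transcript of median length (0.20, adjusted p = 0.21).

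The 3 LRIG genes encode transmembrane proteins with leucine-rich repeats, of which LRIG1 is the ERBB inhibitor named above. LRIG1 (chromosome 3, 66378797 to 66501263, minus strand) stood at 508, 699 and 644 in vector and 764, 865 and 809 in LACTB libraries. Its log2 difference, 0.41 (SE 0.15, adjusted p = 0.025), was the smallest of the 10 in size, and it no longer passed when vector library 1 was left out (0.28, adjusted p = 0.064), nor without LACTB library 2 (adjusted p = 0.11) or 3 (0.069), nor with median centring (0.11) or quantile normalization (0.15). LRIG2 (chromosome 1, 113073209 to 113132260, plus strand) stood at 202, 256 and 179.9 in vector and 381, 350.2 and 493 in LACTB libraries, and rose by 0.94 (SE 0.19, adjusted p = 0.00032). LRIG3 (chromosome 12, 58872149 to 58920522, minus strand) was the tightest of the 10 in vector cells, at 427, 454 and 449, and stood at 776, 613 and 687 in LACTB libraries. It rose by 0.63 (SE 0.15, adjusted p = 0.0012). With the trend on length and GC removed the LRIG2 call was lost on the longest transcript (0.28, adjusted p = 0.18), and those of LRIG2 (0.20, adjusted p = 0.34) and LRIG3 (0.24, adjusted p = 0.14) on the transcript of median length.

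ERRFI1, also called MIG6, binds the kinase domain of EGFR and its relatives and is itself induced by their signalling (chromosome 1, 8004404 to 8026308, minus strand, 4 exons). It stood at 780.2, 967 and 738 in vector and 1187, 1324 and 1211 in LACTB libraries. The means of 829 ± 122 and 1240.0 ± 73.3 (SD, n = 3) gave a log2 difference of 0.59 (SE 0.14, adjusted p = 0.00097).

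Levels between genes were compared per kilobase of the longest transcript. In vector cells STUB1 came first with 3031 ± 347 normalized counts per kilobase, then RNF41 with 727 ± 64.1 and ERRFI1 with 267 ± 39.3, and the ranges of these 3 did not overlap. LRIG1 (117 ± 18.6), LRIG3 (109 ± 3.5) and CBL (89.1 ± 23.5) followed, LRIG3 overlapping both others, and CBL did not overlap CBLB. CBLB (41.7 ± 5.69), NEDD4 (31.2 ± 5.89), USP8 (23.1 ± 4.87) and LRIG2 (18.4 ± 3.41) closed the order and each overlapped the next. In LACTB cells STUB1 was still first with 1871 ± 111, then RNF41 with 527 ± 39.3 and ERRFI1 with 399.6 ± 23.6, so the distance between RNF41 and ERRFI1 narrowed. NEDD4, at 78.5 ± 17.6, stood above CBLB, at 58.6 ± 5.21, though their ranges overlapped. The order depends on the transcript chosen. With the basic-set transcript of median length, USP8 moved to the fifth place in vector cells (123 ± 26.01), and in LACTB cells ERRFI1 (1247 ± 73.7) and RNF41 (1202 ± 89.6) overlapped.

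Ratios between functionally linked genes within a library do not depend on a scaling factor of the library, and 8 such pairs were compared. With 3 against 3 libraries the exact permutation test (two-sided) cannot go below p = 0.10, which becomes 0.16 after adjustment over the 8 pairs, so no pair could pass. The USP8 to RNF41 log2 ratio was -3.08, -3.03 and -3.56 in vector and -2.30, -1.89 and -2.17 in LACTB libraries, a shift of 1.11 or 2.15-fold with no overlap (exact p = 0.10). The ratio of RNF41 to its substrate's transcript ERBB3 went from -1.81 ± 0.29 to -2.29 ± 0.24 (SD, n = 3), and here the groups overlapped (exact p = 0.20, adjusted 0.20). NEDD4 to ERBB3 shifted by 1.30 and STUB1 to HSPA8, the constitutive HSP70 chaperone, by -0.63, both without overlap (exact p = 0.10). The STUB1 to HSPA8 ratio was nearly constant in LACTB cells (-4.48, -4.50 and -4.54) but ran from -4.34 to -3.52 in vector cells.

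Between relatives, the LRIG2 to LRIG1 ratio shifted by 0.53 with no overlap (exact p = 0.10), while LRIG3 to LRIG1 (0.23) and CBLB to CBL (-0.37) overlapped between groups (exact p = 0.20 each). The LRIG3 to LRIG1 shift rested on single libraries, at 0.096 without LACTB library 1, 0.147 without vector library 2 and 0.356 without LACTB library 2. For ERRFI1 and its target EGFR, both of which rose, the ERRFI1 to EGFR log2 ratio went from 0.73 ± 0.52 to -0.09 ± 0.09 (exact p = 0.10), with vector values of 1.29, 0.62 and 0.27 all above the LACTB values of -0.17, 0.01 and -0.11. Its size rested in part on vector library 1, without which the shift was -0.54.

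**Figure D2:**
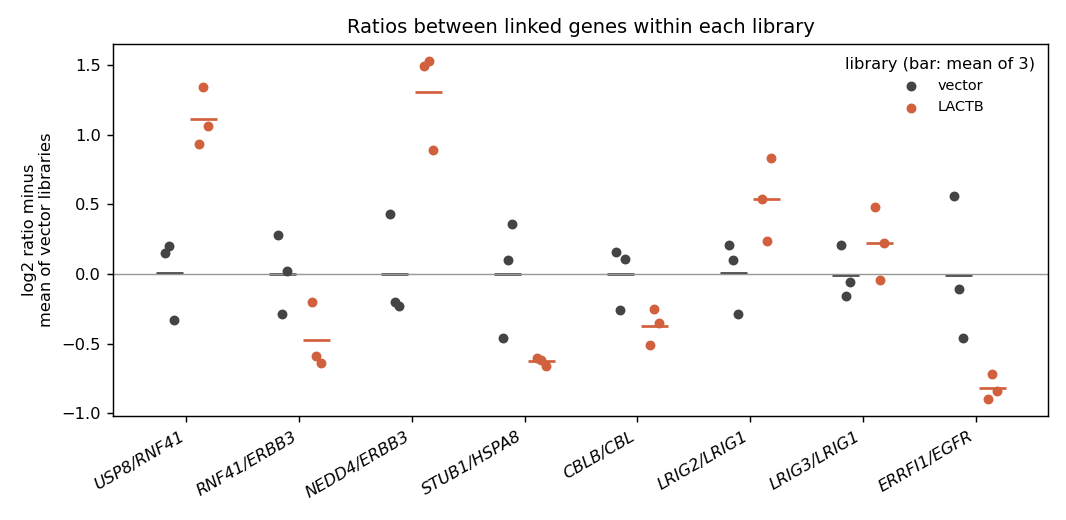
Log2 ratio of each linked pair in each library, minus the mean of the vector libraries, with a bar at the mean of 3 (grey vector, orange LACTB). USP8/RNF41 and NEDD4/ERBB3 lie higher in every LACTB library, STUB1/HSPA8 and ERRFI1/EGFR lower, while RNF41/ERBB3, CBLB/CBL and LRIG3/LRIG1 overlap.

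The regulators differ in transcript length and GC content, which moved with the group difference across the transcriptome. Over 12710 tested genes, which are not independent, Spearman rho of the log2 difference was 0.41 with longest transcript length and -0.45 with GC content. Most of the genes that rose have long transcripts of low GC: NEDD4 (7235 bases, 37.7% GC), CBLB (6780 bases, 41.4%), CBL (11231 bases, 45.8%), LRIG2 (11555 bases, 42.5%) and USP8 (19026 bases, 40.3%) were all longer than the median of 3623 bases and below the median GC of 48.3%. STUB1 (1853 bases, 65.0%) had only 15.5% of tested genes shorter than it and was richer in GC than 96.6%. RNF41 fell although its longest transcript (5596 bases, 47.6%) was longer than that of 77.2% of tested genes. Its basic-set transcript of median length has 2452 bases. LRIG1 (5283 bases, 55.2%) rose at a GC content above that of 71.6% of tested genes.

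**Figure D3:**
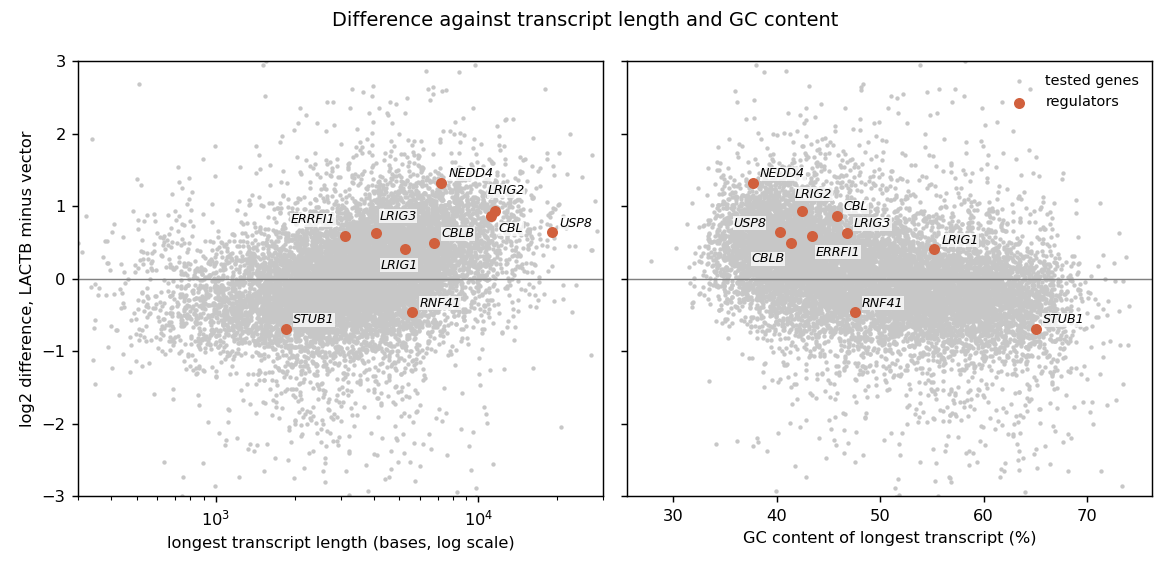
Log2 difference, LACTB minus vector, against longest transcript length (left, log axis, bases) and GC content (right, percent), for tested genes (grey) and the 10 regulators (orange). NEDD4, LRIG2, CBL and USP8 lie among long transcripts of low GC and STUB1 among short ones of high GC, while RNF41 lies below 0 at a length where most genes lie above; 76 genes beyond -3 or 3 and 16 outside 300 to 30000 bases are not drawn.

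When a smooth trend on both properties was removed from each library, 5 of the 10 stayed higher and 2 lower, while 48.6% of all tested genes passed. On the longest transcript RNF41 stood further below 0, at -0.66 (95% interval -0.89 to -0.44, adjusted p = 0.00022). STUB1 shrank to -0.19 (adjusted p = 0.028), NEDD4 to 0.73 (adjusted p = 0.0022) and CBL to 0.35 (adjusted p = 0.020). LRIG1 (0.42, adjusted p = 0.0058), LRIG3 (0.52, adjusted p = 0.0032) and ERRFI1 (0.42, adjusted p = 0.0062) kept their calls. LRIG2 (0.28, adjusted p = 0.18), CBLB (-0.026, adjusted p = 0.90) and USP8 (-0.21, 95% interval -0.53 to 0.10, adjusted p = 0.24) lost theirs, and the last pair changed sign. The longest USP8 transcript is far longer than its basic-set transcript of median length (3559 bases). With the latter transcript for every gene, USP8 stood at 0.20 (adjusted p = 0.21) and LRIG3 also lost its call (0.24, adjusted p = 0.14). Then 4 of the 10 were higher and 2 lower, with 49.3% of tested genes called. RNF41 stood there at -0.49 (adjusted p = 0.00067), beside -0.46 as deposited. ERRFI1 stood at 0.79 (adjusted p = 0.00024), beside 0.59 as deposited. The USP8 to RNF41 ratio shift was 0.45 after the removal on the longest transcript, and that of LRIG2 to LRIG1 turned to -0.15.

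**Figure D4:**
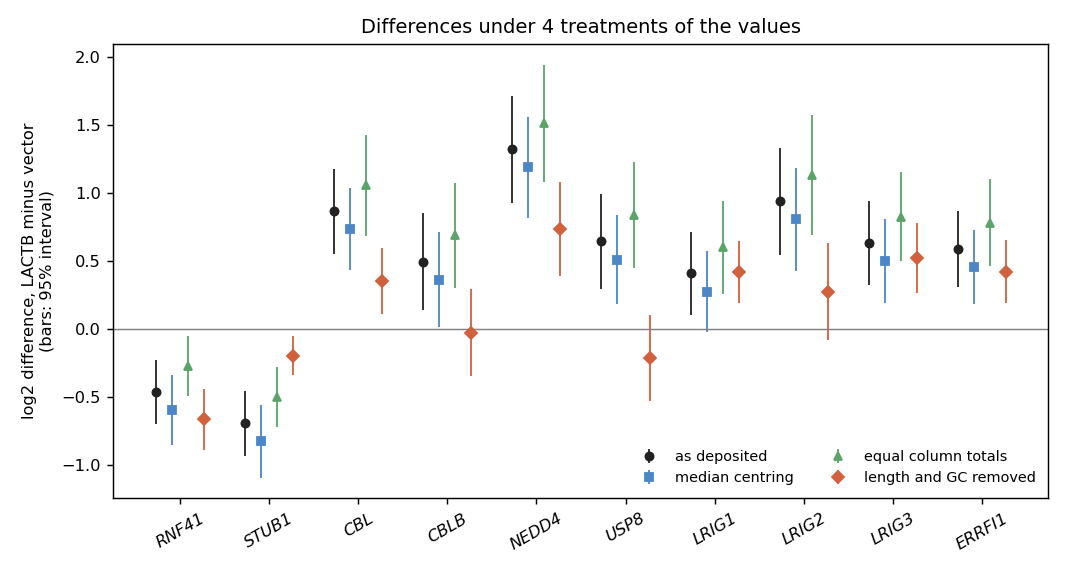
Log2 difference, LACTB minus vector, with 95% intervals for each regulator as deposited (black), after median centring (blue), with equal column totals (green) and with the length and GC trend removed (orange). The intervals of RNF41 and STUB1 stay below 0 and those of NEDD4, CBL, LRIG3 and ERRFI1 above 0 in all 4, whereas those of USP8, CBLB and LRIG2 include 0 with the trend removed and that of LRIG1 with median centring.

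Scaling by 1 factor per library moved all genes the same way. Equal column totals took the median difference of all tested genes from 0.05 to 0.24, and median centring to -0.09. All 10 calls held with equal column totals (6887 of 12939 tested genes called), RNF41 with its smallest margin (-0.27, adjusted p = 0.038). Quantile normalization is no such factor, and it brought RNF41 (-0.36), STUB1 (-0.55), NEDD4 (1.12) and CBLB (0.29) all closer to 0. With median centring (52.8% of tested genes called) and with quantile normalization (50.3%), 6 stayed higher and 2 lower, and the calls lost were those of CBLB and LRIG1.

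Some regulators lie among genes that moved the same way. The 50 tested genes nearest to RNF41 had a median log2 difference of -0.39, and -0.29 with length and GC removed. Around STUB1 these values were -0.38 and -0.11, around NEDD4 0.44 and -0.01, around USP8 0.43 and -0.02, around CBLB 0.56 and 0.20, and around LRIG1 0.43 and 0.08. LRIG3 rose where its neighbours had a median of -0.24 (-0.18 with length and GC removed), and ERRFI1 where theirs was -0.10 (0.04). CBL neighbours had a median of 0.05 (0.09) and LRIG2 neighbours 0.21 (0.11).

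Exons of other genes lie on the opposite strand of several members, and no strand setting is given in the sources used here, so reads from such pairs cannot be told apart. JMJD8 shares 42.4% of the exonic bases of STUB1, and it fell too (log2 difference -0.34, adjusted p = 0.020). MCAM shares 4.34% of those of CBL and is far more abundant, and it fell from a mean of 18838 to 12212 (adjusted p = 0.0001) while CBL rose. SLC25A26 shares 12.9% of those of LRIG1 and fell by 0.63 (adjusted p = 0.00047) while LRIG1 rose. RLIMP2, a processed pseudogene without a row in the deposited table, shares 12.55% of the exonic bases of LRIG2. The part of these overlaps in the members' values was not tested. USP8 also has a processed pseudogene, USP8P1 on chromosome 6, so its value is uncertain to that extent.

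Tested transcripts of the ERBB receptors and their ligands were mostly higher. Of 15 genes listed, 14 were in the table and 9 passed the filter, of which 6 rose, 1 fell and 2 did not pass the test (median 1.19, beside 0.05 over all tested genes, of which 27.4% were higher and 24.6% lower). The receptor gene ERBB2 rose by 1.19 (adjusted p = 5.5e-08), and EGFR rose from 520.3 ± 175 to 1321 ± 13.8 (adjusted p = 4.3e-06). The ligand genes EREG and NRG1 rose by 2.44 and 1.55, and NRG2, named after its values were seen, fell by 0.96. EREG stood at only 21.7 ± 7.87 in vector and 118.2 ± 12.8 in LACTB cells (SD, n = 3). Its vector values lay under the filter, so EREG was tested only because of its LACTB libraries. ERBB3, the substrate of RNF41, stood at 12833, 15973 and 13993 in vector and 12898, 15261 and 15117 in LACTB libraries. Its log2 difference was 0.018 with a 95% interval of -0.23 to 0.26 (adjusted p = 0.91), so a transcript change of the size seen for RNF41 lay outside that interval.

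Among 11 other ligases and deubiquitinases of ERBB receptors that were tested, limma called 7 higher and 0 lower (also 0 lower at an unadjusted p under 0.05), with a median of 0.32. Over all tested genes 27.4% were higher and 24.6% lower. The smallest adjusted p were those of WWP1, a HECT ligase of the NEDD4 family (291.7 ± 45.3 to 649 ± 69.0, log2 difference 1.16), the deubiquitinase USP9X (0.85) and the HECT ligase SMURF2 (0.78). With length and GC removed the counts were 2 higher and 2 lower, beside 3014 and 3166 of 12710 over all genes, and the calls of USP9X (0.12, adjusted p = 0.37) and SMURF2 (0.28, adjusted p = 0.12) were lost. With median centring 5 were higher and 1 lower, beside 2684 and 4148 of 12939 over all genes.

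Of 24 tested genes of endocytosis and endosomal sorting, 8 rose, 6 fell and 10 did not pass, with a median of 0.10. These shares are near the 27.4% higher and 24.6% lower of all tested genes. UBASH3B, a phosphatase that binds CBL (log2 difference 0.97, adjusted p = 9.4e-07), PDCD6IP, an ESCRT-associated protein also called ALIX (0.90), and SH3KBP1, the adaptor CIN85 that links CBL to endocytosis (0.71), had the smallest adjusted p, and all rose. With equal column totals 10 were higher and 3 lower, beside 4974 and 1913 of 12939 over all genes.

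Of 17 tested chaperone and conjugating enzyme partners of STUB1, 1 rose, 5 fell and 11 did not pass (median -0.06). Of all tested genes 27.4% were higher and 24.6% lower, so the share that fell is near the background. The nucleotide exchange factor BAG1 fell from 3969 ± 755 to 2288 ± 130.4 (log2 difference -0.78, adjusted p = 3.6e-05). The inducible HSP70 genes HSPA1A (-0.78) and HSPA1B (-0.71) fell, but they are near-identical copies and their separate values are uncertain. The gene that rose, BAG5 (0.47), is named after its values were seen. HSPA8 differed by -0.065 (95% interval -0.36 to 0.23, adjusted p = 0.72). The count of rises depended on scaling, with 5 higher and 5 lower with equal column totals and 6 higher and 5 lower with quantile normalization. Over all 12939 genes the counts were 4974 higher and 1913 lower with equal column totals, and 3214 and 3296 with quantile normalization.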

How the data were processed

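RNA-seq of 6 LN229 libraries was used, 3 per group. Per the labels' protocols, RNA was extracted with Trizol and chloroform for NEB libraries. HISAT2 and hg38 were used per the submitters' processing notes. The authors deposited a normalized read count (a signal per gene) for 24489 rows. The sources used here do not give the normalization method, the counter or the strand setting. The values are not whole and read depth is unknown, so no count model or counting interval was used. Library spread sets the precision.

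Values below 1e-10 were set to 0, and for 9 repeated symbols the row with the higher mean was kept. Genes whose mean reached 1 CPM of the mean column total (37.7 normalized counts) were compared as log2(value + 1), which understates changes of low genes, with limma 3.58.1 (R 4.3.3; trend, robust), two-sided, Benjamini-Hochberg over 12939 genes, threshold 0.05. The fit was also run on simulated data with independent noise and few changed genes. That setting differs from these data, so the run says nothing of the calls made here. Differences are LACTB minus vector. Length and GC came from GENCODE 29 (98.2% of tested genes), and the trend removed was a natural spline with 4 degrees of freedom per property. Ratios used exact permutation over libraries.

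The members and lists were chosen with earlier results of these data known. All members are named, and of the other lists the 3 genes of smallest adjusted p with EGFR, ERBB2, ERBB3 and HSPA8. Genes that share exons with a member were named from the annotation. Alternatives were other scalings, filters, pseudocounts, test settings and thresholds, the replicate number as a block, and leaving out each library. The trend on the median-length transcript was chosen after seeing the data. Plots used matplotlib 3.10.9.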

Additional observations from a re-analysis of the deposited data

How the results depend on the processing

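Over 18 refits of each regulator, RNF41, STUB1, NEDD4, CBL and ERRFI1 kept direction and call in all 18, LRIG3 in 17, USP8 and LRIG2 in 16, LRIG1 in 13 and CBLB in 12. The count of 8 higher and 2 lower became 5 and 2 with length and GC removed, 4 and 2 with the median-length transcript, and 1 and 0 with a 2-fold minimum, where the 61 other listed genes tested gave 7 and 0. At the 2-fold minimum the share over all tested genes was not counted, so those counts have no background beside them. Leaving out a library gave 6 to 8 higher and 2 lower, while 5344 to 7341 of 12939 tested genes were called in those fits. CBLB (-0.026) and USP8 (-0.21) changed sign with length and GC removed. The cause of these changes was not tested. ERBB3, not called, changed sign with median centring (-0.12), with length and GC removed (-0.068, or -0.19 on the median-length transcript), and without vector library 1 (-0.056), LACTB library 2 (-0.025) or LACTB library 3 (-0.018), its range over left-out libraries being -0.056 to 0.102. HSPA8 did so with quantile normalization (0.33, adjusted p = 0.023), equal column totals (0.13) and without vector library 1 (0.14), with a range of -0.181 to 0.14 over left-out libraries. With length and GC removed the log2 ratio shifts were 0.45 for USP8 to RNF41, 0.80 for NEDD4 to ERBB3, -0.19 for STUB1 to HSPA8 and -0.15 for LRIG2 to LRIG1.

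Same-numbered libraries of the groups did not clearly deviate together (correlations 0.02, 0.18 and 0.003 for numbers 1 to 3). The value for number 2 was the highest of any vector and LACTB pair. Deviations from means of only 3 libraries cannot show whether same-numbered libraries were handled together. With the replicate block 8 regulators were higher and 2 lower, and 6879 genes were called in place of 6721. LACTB library 1 correlated best with vector library 3 (0.16).

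Read depth is unknown, and 3 libraries per group limit the precision.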

Other observations

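RNF41 lies 98669 bases from ERBB3, the gene of the receptor it acts on, on chromosome 12. The interval between them holds 7 tested genes. All 7 had negative log2 differences (median -0.39, beside 0.05 over all tested genes). Of the 7, 5 were called lower, where 24.6% of all tested genes were. ERBB3 itself, at the edge of the interval, differed by 0.018 and was not called. For the 50 tested genes nearest RNF41 the median went from -0.39 to -0.29 with length and GC removed. The 7 genes were looked at after the values of RNF41 were seen.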
